A study of Mus musculus with 12 samples.

Results

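Immediate early genes and the Gadd45 stress genes were followed across epididymal fat, inguinal fat and liver of Mgl2-DTR mice, in which diphtheria toxin targets CD301b-positive phagocytes, and of wild-type mice. The set was a named list of 10 genes, Fos, Jun, Junb, Atf3, Egr1, Ier2, Dusp1, Gadd45a, Gadd45b and Gadd45g. A gene was kept if a probe carried its symbol alone, and where a gene had several such probes the brightest was selected on its mean level over the 12 arrays. This left 9 of the 10 listed genes, out of 22180 genes with a single-symbol probe. Gadd45a was skipped because its probe also carries the symbol of another gene. Each of the 9 had exactly 1 such probe, so brightness decided nothing, and all 9 passed the filter on dim genes that left 12710 genes for testing.

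RNA was measured on mouse gene arrays in 6 groups of 2 arrays, the 2 genotypes in each of 3 tissues. The first genotype was male Mgl2-DTR mice on the C57BL/6N background, which carry the diphtheria toxin receptor in cells that use Mgl2 (the CD301b lectin gene), so that these cells die when toxin is given. The other was male wild-type C57BL/6N mice of the same age, which the labels do not state. Both genotypes received the toxin, 500 ng per dose into the abdomen every 3 days, with tissue collection on day 10, so toxin exposure is shared by all groups. The labels name 1 mouse per array but do not say whether arrays of a number in different tissues share an animal, and p-values cover the spread among these arrays only. All values are log2 levels, a change is the Mgl2-DTR level less the wild-type level in log2 units, and a change was called at a Benjamini-Hochberg adjusted p under 0.05 over the 12710 genes (limma, 1 spread per gene shared by all groups).

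Immediate early genes are switched on within minutes of a growth factor, hormone, cytokine or stress signal without new protein being made, and their RNAs are short-lived. Fos, Jun and Junb encode subunits of AP-1, a dimeric transcription factor, and Atf3 encodes a related stress-induced factor that often represses transcription. Egr1 is a zinc finger factor induced through MAP kinases, and Dusp1 is the phosphatase that removes phosphate from p38, JNK and ERK and so limits the same signal. The Gadd45 proteins are small stress proteins that bind partners in growth arrest, DNA repair and the MAP kinase cascade, and Gadd45b is an early response gene of the growing liver.

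The 250 bases before the start of 4 of these genes are shown, those of Dusp1 and Gadd45b, which had the 2 largest absolute genotype changes in liver, and of Atf3 and Fos, which had the 2 largest differences between liver and fat. They come from RefSeq on GRCm38.p6 and run 5′ to 3′ on the gene's own strand. Capitals mark the half-site of the cyclic AMP response element, TGACG on either strand, and the TATA motif TATAAA on either strand. The Dusp1 window lies at chr17:26508473-26508722, minus strand, the Gadd45b window at chr10:80929841-80930090, plus strand, the Atf3 window at chr1:191183334-191183583, minus strand, and the Fos window at chr12:85473640-85473889, plus strand.
Dusp1: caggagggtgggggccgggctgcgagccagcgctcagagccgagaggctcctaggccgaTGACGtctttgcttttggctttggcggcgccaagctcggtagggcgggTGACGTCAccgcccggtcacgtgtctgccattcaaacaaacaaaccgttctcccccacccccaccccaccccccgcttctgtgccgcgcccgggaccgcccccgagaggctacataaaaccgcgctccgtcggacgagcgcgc
Gadd45b: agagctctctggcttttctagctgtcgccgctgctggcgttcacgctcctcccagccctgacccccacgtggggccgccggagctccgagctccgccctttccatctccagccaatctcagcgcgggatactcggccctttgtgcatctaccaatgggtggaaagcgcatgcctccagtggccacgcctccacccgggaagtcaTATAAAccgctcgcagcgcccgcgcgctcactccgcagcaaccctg
Atf3: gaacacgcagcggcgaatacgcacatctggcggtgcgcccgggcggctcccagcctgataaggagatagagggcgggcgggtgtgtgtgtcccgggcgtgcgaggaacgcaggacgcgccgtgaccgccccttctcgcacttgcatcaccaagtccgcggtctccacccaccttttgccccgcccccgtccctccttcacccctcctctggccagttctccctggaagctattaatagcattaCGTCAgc
Fos: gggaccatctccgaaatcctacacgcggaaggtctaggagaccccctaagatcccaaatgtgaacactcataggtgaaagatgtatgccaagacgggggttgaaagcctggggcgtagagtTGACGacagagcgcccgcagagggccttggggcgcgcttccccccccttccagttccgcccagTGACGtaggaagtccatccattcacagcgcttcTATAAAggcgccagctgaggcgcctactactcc

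Dusp1 holds 3 half-site matches, 2 of which form 1 full element, TGACGTCA, on both strands. Fos holds 2 half-site matches, Atf3 holds 1 and Gadd45b holds 0. A TATA motif stands in the windows of Gadd45b and Fos. Windows were used for 8 of the 10 listed genes. Ier2 had none, and Egr1 was left out because the members' windows were filtered by chromosome. Of those 8 windows 4 hold TGACG, against 17.8% of 32851 windows of the same length, which were not filtered by chromosome. The full element TGACGTCA was found in 1 of 8 windows, against 1.55% of all windows, and TATAAA in 3 of 8, against 12.4%. Neither the AP-1 motif TGANTCA, the EGR motif GCGTGGGCG nor the serum response element (CArG box) matched any of the 8, against 6.75%, 0.536% and 1.47% of all windows. These matches are descriptions of letters, and the absence of a match refers only to the windows of these 8 genes, which do not include Egr1.

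The depletion and the tissue labels were checked first. Mgl2 stood at 4.25 and 4.19 in Mgl2-DTR against 7.46 and 7.22 in wild-type epididymal fat, and at 4.12 and 4.72 in Mgl2-DTR against 7.07 and 7.36 in wild-type inguinal fat. In liver it was low in both genotypes, at 4.59 and 4.03 in Mgl2-DTR and 4.36 and 4.12 in wild-type arrays, all under the filter level of 5.71. Of 5 genes of CD301b-positive cells, 0 were called in liver (0.0708% of all genes) and 0 had an unadjusted p under 0.05 (5.53%). Their mean was 4.11 to 4.35 in the liver arrays, also under the filter level, so a loss there could hardly be seen. The mean of 7 adipocyte markers was 5.68 to 5.92 in liver and 11.51 to 12.03 in the fat arrays, and that of 8 hepatocyte markers was 12.74 to 12.76 in liver and 4.89 to 6.39 in fat. Several arrays stood apart. The mean of 7 epididymal duct genes was 10.73 in Mgl2-DTR epididymal replicate 2 and 3.69 to 4.13 in the other 11 arrays. Skeletal muscle genes averaged 9.14 in Mgl2-DTR inguinal replicate 1 and 9.72 in wild-type inguinal replicate 2, against 6.14 and 6.39 in the other 2 inguinal arrays. Wild-type epididymal replicate 1 had the highest mean of 8 macrophage markers, 10.72, against 8.98 to 9.81 in the other 3 epididymal arrays. Hepatocyte markers averaged 6.39 in wild-type epididymal replicate 2, against 4.89 to 4.96 in the other 3 epididymal arrays, and 6.10 in wild-type inguinal replicate 2, against 5.24 to 5.54 in the other 3 inguinal arrays. All 8 hepatocyte markers had lower estimates in Mgl2-DTR than in wild-type epididymal fat, and 0 were called (1 at an unadjusted p under 0.05). Several results changed when wild-type epididymal replicate 2 was left out, and the part of its hepatocyte signal was not tested. In bulk tissue, fewer cells of a type and less RNA per cell cannot be told apart.

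**Figure D1:**
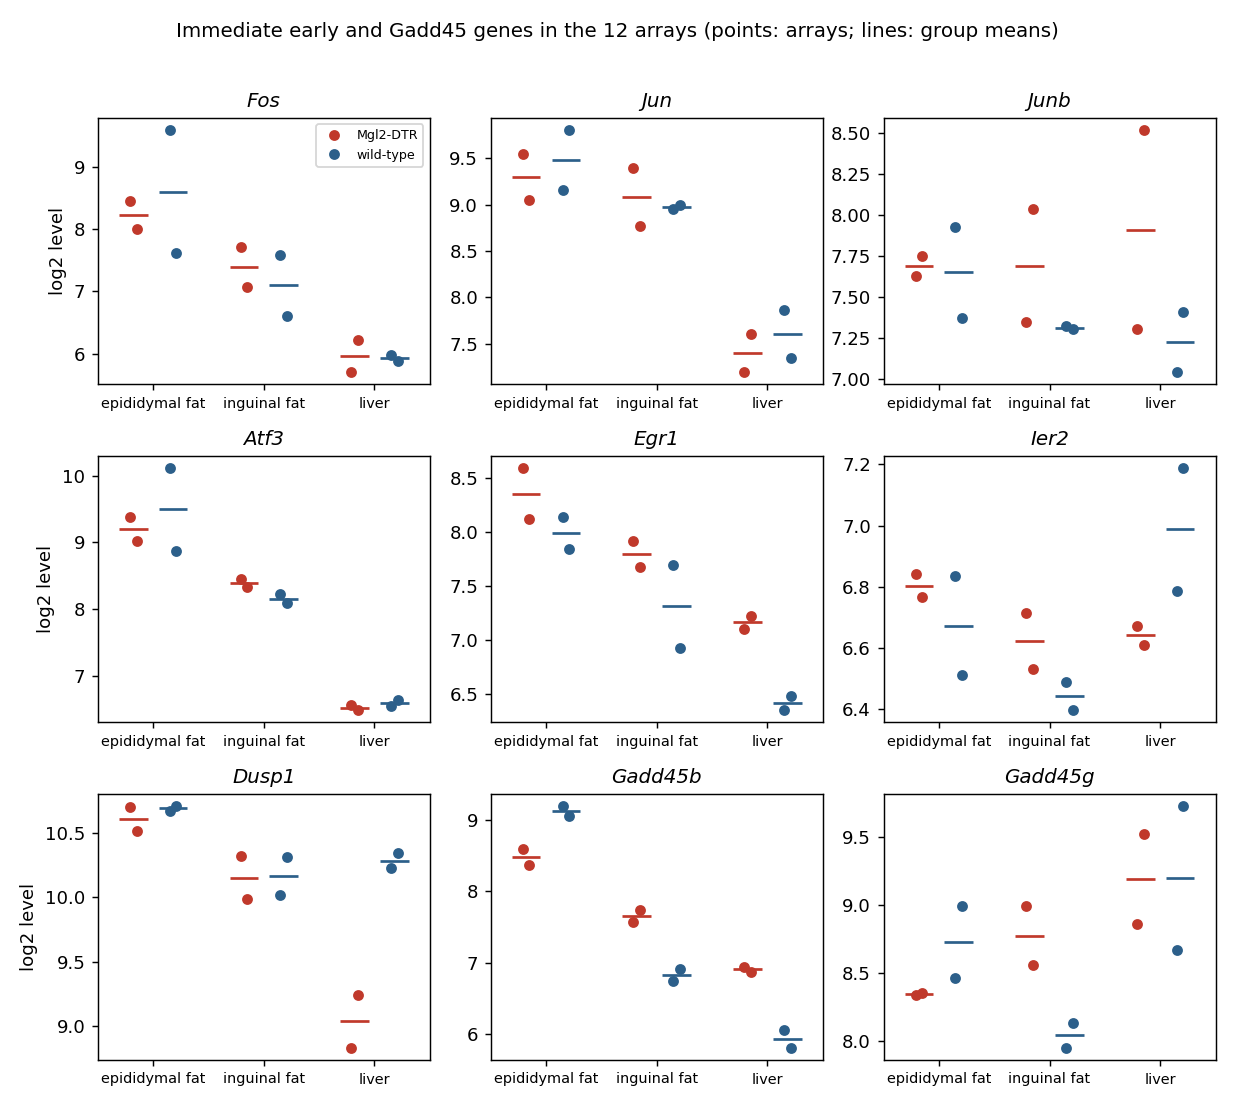
The log2 level of each of the 9 genes (vertical axis, its own range in each panel) in the 12 arrays, by tissue, with Mgl2-DTR (red) left of wild-type (blue). Points are arrays and horizontal lines are group means of 2 arrays. Gadd45b separates the genotypes in every tissue, at 8.36 to 8.59 in Mgl2-DTR against 9.06 to 9.19 in wild-type epididymal fat, and Dusp1 in liver lies at 8.84 and 9.24 in Mgl2-DTR against 10.22 and 10.34 in wild-type arrays.

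No member passed the threshold between the genotypes in any of the 3 tissues. In epididymal fat 0 of 9 were called, with 0.0315% of all tested genes called. In inguinal fat 0 of 9 were called against 0.197% of all genes, and in liver 0 of 9 against 0.0708%. At an unadjusted p under 0.05 there was 1 member in epididymal fat (6.98% of all genes), 1 in inguinal fat (6.93%) and 3 in liver (5.53%). The members with such a p were Gadd45b in all 3 tissues, and Dusp1 and Egr1 in liver. Both genotypes of a member lay apart, with no overlap of their 2 arrays each, for 2 of 9 members in epididymal fat against 29.5% of all genes, for 5 of 9 in inguinal fat against 46.9%, and for 4 of 9 in liver against 34.4%.

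**Figure D2:**
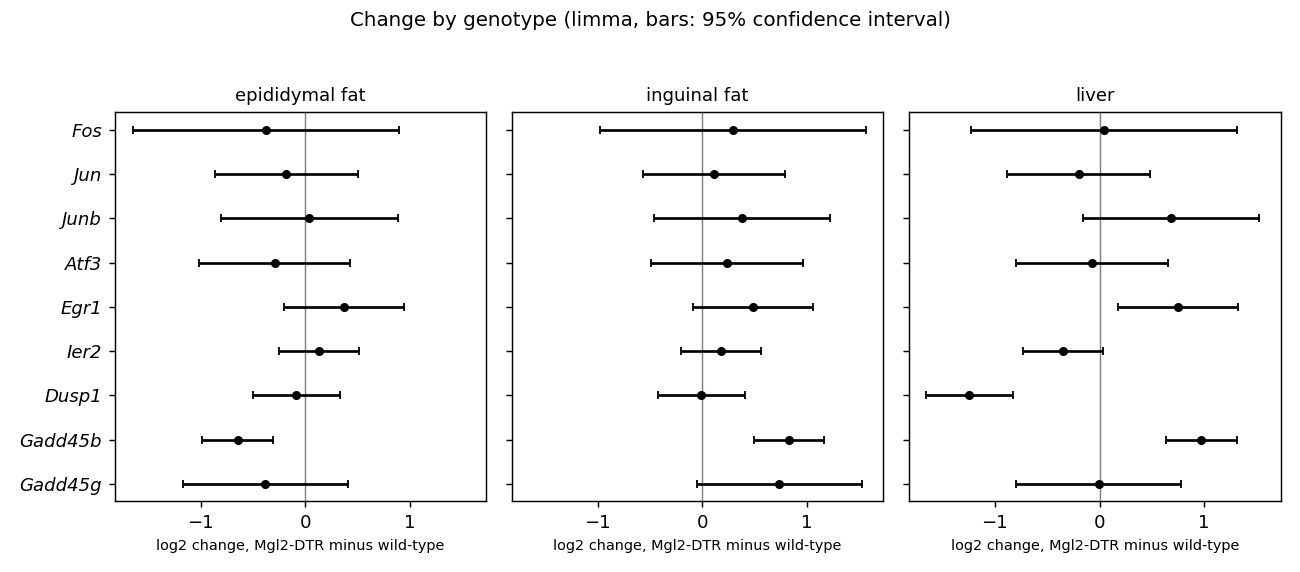
Changes by genotype, Mgl2-DTR less wild-type in log2 units (horizontal axis), for the 9 genes in each tissue. Points are limma estimates from 2 arrays a group and bars are unadjusted 95% confidence intervals. Intervals clear of 0 belong to Gadd45b in all 3 panels (-0.65, 0.83 and 0.97) and to Dusp1 (-1.24) and Egr1 (0.75) in liver, and none of these was called after adjustment.

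Among the Gadd45 genes, Gadd45b had the smallest p of the members in both fat depots, with opposite signs. In epididymal fat it stood at 8.59 and 8.36 in Mgl2-DTR arrays, against 9.19 and 9.06 in wild-type arrays. In inguinal fat it stood at 7.57 and 7.74 in Mgl2-DTR, against 6.74 and 6.91 in wild-type arrays. In liver it stood at 6.94 and 6.87 in Mgl2-DTR, against 6.06 and 5.81 in wild-type arrays. Both Mgl2-DTR arrays were thus lower than both wild-type arrays in epididymal fat and higher in inguinal fat and liver, with no overlap in any tissue. The change was -0.65 (SE 0.149; adjusted p = 0.522) in epididymal fat and 0.83 (SE 0.149; adjusted p = 0.111) in inguinal fat. In liver it was 0.97 (SE 0.149; adjusted p = 0.0863), a 1.96-fold difference, and over the alternatives run the liver change lay between 0.85 and 1.10 with adjusted p between 0.0553 and 0.470.

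The differences between these tissue changes were tested directly. The inguinal change of Gadd45b minus its epididymal change was 1.47 (SE 0.211), which ranked 2 by p among the 12710 genes, with an unadjusted p of 5.37e-05 and an adjusted p of 0.341. For this contrast limma called 0 genes (0.00%), and 364 (2.86%) had an unadjusted p under 0.05, among them Gadd45b and Gadd45g. Gadd45b was called when Mgl2-DTR replicate 1 of epididymal fat was left out (1.59; adjusted p = 0.0137), and likewise without wild-type replicate 2 of that depot (1.54; adjusted p = 0.0340), and over all alternatives the adjusted p lay between 0.0137 and 0.9998. The change in liver less the average fat change was 0.88 (SE 0.183; adjusted p = 0.185) for Gadd45b, and 0 of 9 members were called for that contrast, against 0.236% of all genes, while 3 of 9 had an unadjusted p under 0.05, against 7.94%.

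Gadd45g, another member of this family, gave 8.34 and 8.36 in Mgl2-DTR against 8.47 and 8.99 in wild-type epididymal fat. In inguinal fat it gave 9.0 and 8.56 in Mgl2-DTR against 7.95 and 8.13 in wild-type arrays. In liver it gave 8.86 and 9.52 in Mgl2-DTR against 8.67 and 9.73 in wild-type arrays. The genotypes did not overlap in either fat depot and overlapped in liver, where the 2 arrays of a genotype differed by 0.66 and 1.06. Its changes were -0.38 (SE 0.35; adjusted p = 0.868) in epididymal fat, 0.74 (SE 0.35; adjusted p = 0.738) in inguinal fat and -0.01 (SE 0.35; adjusted p = 0.9999) in liver. Both genes were thus lower in Mgl2-DTR epididymal arrays and higher in Mgl2-DTR inguinal arrays, although none of these changes was called.

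Dusp1 had the smallest p of the members in liver. It stood at 8.84 and 9.24 in Mgl2-DTR livers, against 10.22 and 10.34 in wild-type livers. Both Mgl2-DTR livers lay below both wild-type livers, while the arrays of a genotype differed by 0.41 and 0.12. The change was -1.24 (SE 0.185), a 2.37-fold lower level, which ranked 11 by p of 12710 genes with an unadjusted p of 7.13e-05 and an adjusted p of 0.0823. Over the alternatives run it lay between -1.45 and -1.04, with adjusted p between 0.0553 and 0.445. In epididymal fat Dusp1 gave 10.70 and 10.51 in Mgl2-DTR against 10.67 and 10.71 in wild-type arrays (-0.09, SE 0.185; 95% interval -0.50 to 0.33). In inguinal fat it gave 10.32 and 9.98 in Mgl2-DTR against 10.01 and 10.31 in wild-type arrays (-0.01, SE 0.185; 95% interval -0.43 to 0.40). The genotypes overlapped in both depots. Set against fat, the liver change of Dusp1 was -1.19 (SE 0.226; adjusted p = 0.123), and it was called when wild-type epididymal replicate 2 was left out (-1.20; adjusted p = 0.0477).

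Dusp1 and Gadd45b in liver were the 2 members nearest to the threshold, and their values lay on opposite sides of wild-type. Marker genes of other cells moved with the genotype in the same arrays. Of 5 tested lymphocyte markers, 4 were higher and 1 was lower in Mgl2-DTR livers, and 0 were called. An unadjusted p under 0.05 was reached by 2 of them and by 2 of 8 macrophage markers, against 5.53% of all genes. All 8 macrophage markers were higher in Mgl2-DTR livers and 0 of 8 were called, with a list mean of 8.81 to 8.86 in Mgl2-DTR and 8.24 to 8.29 in wild-type livers. In inguinal fat the mean was 7.86 to 8.43 in Mgl2-DTR and 9.56 to 9.72 in wild-type arrays, and in epididymal fat it was 8.98 to 9.20 in Mgl2-DTR and 9.81 to 10.72 in wild-type arrays. Gadd45b and the macrophage mean were both higher in Mgl2-DTR livers and both lower in Mgl2-DTR epididymal fat. In Mgl2-DTR inguinal fat Gadd45b was higher and the macrophage mean was lower. The part of macrophages or lymphocytes in these values was not tested.

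Egr1 was the only other member with an unadjusted p under 0.05, in liver. It stood at 7.10 and 7.22 in Mgl2-DTR livers, against 6.35 and 6.48 in wild-type livers, with no overlap. Its change in liver was 0.75 (SE 0.255; adjusted p = 0.759). In epididymal fat Egr1 gave 8.59 and 8.12 in Mgl2-DTR against 8.14 and 7.84 in wild-type arrays (0.37, SE 0.255; adjusted p = 0.813). In inguinal fat it gave 7.91 and 7.67 in Mgl2-DTR against 7.70 and 6.93 in wild-type arrays (0.48, SE 0.255; adjusted p = 0.764). The genotypes overlapped in both depots, and the estimate was above 0 in all 3 tissues. The inguinal estimate of Egr1 depended on single arrays, being 0.87 without wild-type replicate 1, 0.10 without wild-type replicate 2 and -0.02 without both arrays high in muscle genes. Its epididymal estimate was 0.75 without the macrophage-rich wild-type replicate 1 and the duct-bearing Mgl2-DTR replicate 2. The average of the 3 changes was 0.53 (SE 0.147) with an unadjusted p of 0.00524 and an adjusted p of 0.495. For that average 0 of 9 members were called, against 0.0708% of all genes. An unadjusted p under 0.05 was reached by 3 of 9, against 7.67%, the others being Gadd45b (0.39, SE 0.0863) and Dusp1 (-0.45, SE 0.107). The averages of Gadd45b and Dusp1 join unlike changes. In epididymal fat, inguinal fat and liver these were -0.65, 0.83 and 0.97 for Gadd45b and -0.09, -0.01 and -1.24 for Dusp1.

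The AP-1 genes overlapped between the genotypes in most tissues. Fos gave 8.45 and 8.0 in Mgl2-DTR against 9.59 and 7.61 in wild-type epididymal fat, where the wild-type arrays differed by -1.97, replicate 2 minus replicate 1. It gave 7.71 and 7.07 in Mgl2-DTR against 7.58 and 6.61 in wild-type inguinal fat, and 5.70 and 6.23 in Mgl2-DTR against 5.97 and 5.88 in wild-type liver, close to the filter level of 5.71. With changes of -0.37, 0.30 and 0.04 (SE 0.565 each), Fos had the widest intervals of the 9 members, so that in liver values from -1.23 to 1.31 lay within the 95% interval. The epididymal estimate of Fos changed sign with the wild-type array left out, being 0.61 without replicate 1 and -1.36 without replicate 2.

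Jun gave 9.55 and 9.05 in Mgl2-DTR against 9.16 and 9.81 in wild-type epididymal fat. Inguinal levels of Jun were 9.40 and 8.77 in Mgl2-DTR against 8.96 and 8.99 in wild-type arrays, and liver levels were 7.19 and 7.61 in Mgl2-DTR against 7.86 and 7.34 in wild-type arrays. The genotypes overlapped in all 3 tissues, with changes of -0.18, 0.11 and -0.20 (SE 0.303 each). Junb gave 7.63 and 7.75 in Mgl2-DTR against 7.92 and 7.37 in wild-type epididymal fat, and 7.34 and 8.03 in Mgl2-DTR against 7.32 and 7.30 in wild-type inguinal fat. In liver Junb stood at 7.30 and 8.52 in Mgl2-DTR against 7.04 and 7.41 in wild-type arrays. The liver groups overlapped, and the liver change of 0.68 (SE 0.374; adjusted p = 0.994) depended on 1 array, since it was 0.08 without Mgl2-DTR replicate 2 and 1.29 without Mgl2-DTR replicate 1. The changes of Junb in epididymal and inguinal fat were 0.04 and 0.38.

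Atf3, the stress-induced relative, gave 9.39 and 9.02 in Mgl2-DTR against 10.12 and 8.87 in wild-type epididymal fat. It gave 8.45 and 8.33 in Mgl2-DTR against 8.22 and 8.09 in wild-type inguinal fat, and 6.55 and 6.48 in Mgl2-DTR against 6.55 and 6.64 in wild-type liver. The changes were -0.29, 0.24 and -0.07 (SE 0.323 each), and the genotypes lay apart only in inguinal fat. Leaving out wild-type epididymal replicate 2 gave an epididymal change of -0.91 that was called (adjusted p = 0.0235), and leaving out wild-type replicate 1 gave 0.33. Wild-type epididymal replicate 1, whose macrophage marker mean was the highest, had the highest Fos, Atf3, Junb and Gadd45b among the 4 epididymal arrays. Egr1 and Ier2 were highest in Mgl2-DTR replicate 1 and Jun, Dusp1 and Gadd45g in wild-type replicate 2, and the part of that cell type was not tested. Ier2, a small nuclear protein, had the smallest range of the members, 6.40 to 7.19 over the 12 arrays, and its changes were 0.13 in epididymal fat, 0.18 in inguinal fat and -0.35 in liver (SE 0.17 each). In liver it stood at 6.67 and 6.61 in Mgl2-DTR against 6.79 and 7.19 in wild-type arrays, without overlap (adjusted p = 0.966), and the change was -0.55 without wild-type replicate 1 and -0.15 without wild-type replicate 2. The liver change of Ier2 less its inguinal change was -0.53 (SE 0.24; adjusted p = 0.723), or -0.73 and -0.33 without wild-type liver replicate 1 and replicate 2, and 0 of 9 members were called for that contrast, against 0.189% of all genes.

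Most members differed between tissues. Liver was compared with the mean of both fat depots, averaged over both genotypes, and 7 of 9 members were called, against 68.4% of all tested genes, so the share itself is near the background. Of these, 6 were lower in liver (41.8% of all genes were called lower) and 1 was higher (26.6%). Atf3 ranged from 6.48 to 6.64 in the 4 liver arrays, against 8.09 to 8.45 in inguinal and 8.87 to 10.12 in epididymal fat. Its difference of -2.25 (SE 0.198; adjusted p = 5.71e-06) was the largest of the members, a 4.77-fold lower level in liver. Its 3 tissues did not overlap, in the order liver, inguinal and epididymal.

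Fos ranged from 5.70 to 6.23 in liver, against 6.61 to 7.71 in inguinal and 7.61 to 9.59 in epididymal fat. The liver level was lower by 3.69-fold (-1.88, SE 0.346; adjusted p = 0.000925) and lay below every fat array, while both depots overlapped. Jun ranged from 7.19 to 7.86 in liver, against 8.77 to 9.40 in inguinal and 9.05 to 9.81 in epididymal fat (-1.71, SE 0.186; adjusted p = 2.67e-05). Like Fos, it separated liver from fat but not the depots from each other. Egr1 ranged from 6.35 to 7.22 in liver, against 6.93 to 7.91 in inguinal and 7.84 to 8.59 in epididymal fat (-1.07, SE 0.156; adjusted p = 0.000199), with overlap between each pair of neighbours.

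Gadd45b ranged from 5.81 to 6.94 in liver, against 6.74 to 7.74 in inguinal and 8.36 to 9.19 in epididymal fat (-1.60, SE 0.0915; adjusted p = 2.47e-07). Epididymal fat was apart from the other tissues, whereas the liver arrays of Mgl2-DTR mice reached the wild-type inguinal arrays. Gadd45g was the only member called higher in liver, at 8.67 to 9.73, against 7.95 to 9.0 in inguinal and 8.34 to 8.99 in epididymal fat (0.72, SE 0.214; adjusted p = 0.0135). The 3 tissues overlapped for Gadd45g, and Gadd45g was no longer called with Mgl2-DTR liver replicate 2 left out (0.56; adjusted p = 0.0713), or with wild-type liver replicate 2 left out (0.46; adjusted p = 0.0619). Dusp1 was lower in liver by 0.74 (SE 0.113; adjusted p = 0.000274), and this average joins Mgl2-DTR livers at 8.84 and 9.24 with wild-type livers at 10.22 and 10.34. Junb (-0.02, 95% interval -0.53 to 0.50) and Ier2 (0.18, 95% interval -0.06 to 0.41) were not called, although Ier2 was called after a further quantile normalization (0.34; adjusted p = 0.0107) and without wild-type liver replicate 1 (0.28; adjusted p = 0.0455).

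**Figure D3:**
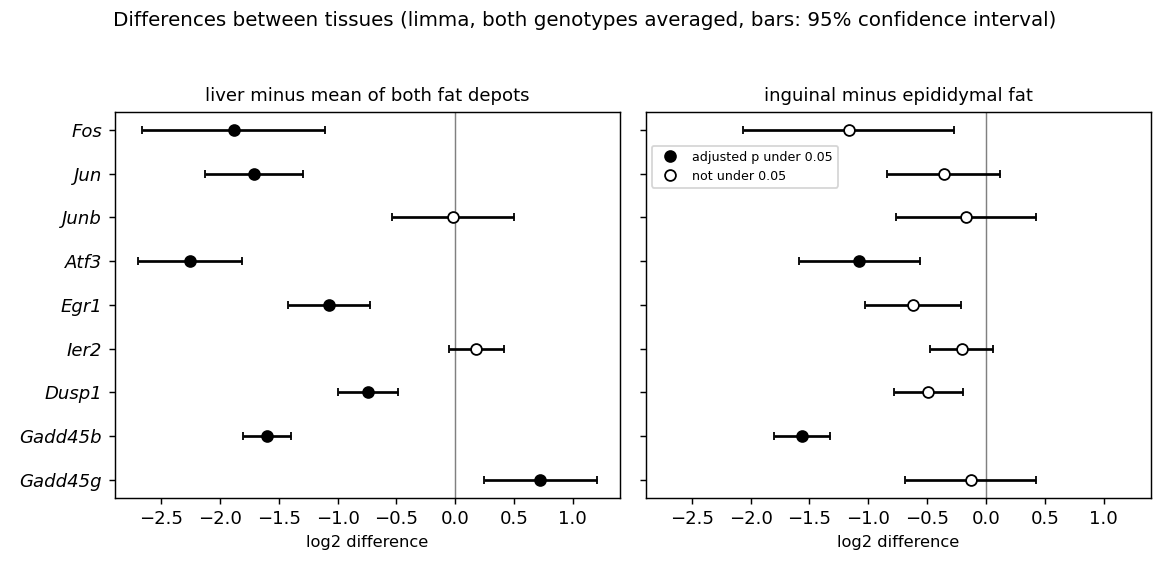
Differences between tissues for the 9 genes on the log2 scale (horizontal axis), averaged over both genotypes, with liver minus the mean of both depots on the left and inguinal minus epididymal fat on the right. Points are limma estimates, filled where the adjusted p was under 0.05, and bars are 95% confidence intervals. Atf3 (-2.25) and Fos (-1.88) lie farthest below 0 on the left, Gadd45g (0.72) alone is filled above 0, and Gadd45b (-1.56) and Atf3 (-1.08) are the filled points on the right.

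Between the depots, all 9 members had lower estimates in inguinal than in epididymal fat, as had 5859 of all 12710 genes. Of the members 2 of 9 were called, both lower, against 7.43% of all genes called and 3.32% called lower. Gadd45b was lower by 1.56 (SE 0.106; adjusted p = 7.03e-05), a 2.96-fold difference that ranked 15 by p of the 12710 genes and was called in every alternative run. Atf3 was lower by 1.08 (SE 0.228; adjusted p = 0.0254). The call of Atf3 was lost in 7 of 26 alternatives, at adjusted p up to 0.169, among them without either wild-type inguinal array, either Mgl2-DTR inguinal array or Mgl2-DTR epididymal replicate 1. Dusp1 (-0.49, SE 0.13; adjusted p = 0.0545), Egr1 (-0.62, SE 0.18; adjusted p = 0.0695) and Fos (-1.17, SE 0.399; adjusted p = 0.109) missed the threshold. Dusp1 was called with the filter at the 75th percentile (adjusted p = 0.0432) and with a trended, robust moderation (adjusted p = 0.0433). Egr1 was called without wild-type inguinal replicate 1 (-0.81; adjusted p = 0.0288), and Egr1 (-0.69; adjusted p = 0.0454) and Fos (-1.66; adjusted p = 0.00449) were called without wild-type epididymal replicate 2. Cell markers also differed between the depots. All 8 macrophage markers had lower estimates in inguinal fat (median -0.82, 4 called), while all 6 tested muscle genes (median 2.69, 1 called) and all 7 endothelial genes (median 0.46, 1 called) had higher ones, and their part in the members' differences was not tested. An unadjusted p under 0.05 was reached by 5 of 9 members, against 25.9% of all genes. The depots did not overlap for Gadd45b, Atf3 and Dusp1, 3 of 9 members, against 17.1% of all genes. The mean of the 9 genes was 7.24 to 7.59 in liver, 7.74 to 8.27 in inguinal and 8.44 to 8.90 in epididymal arrays, with no overlap between the tissues.

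In each of the 6 groups the median absolute difference between the 2 arrays was higher for the members than for all tested genes. It was 0.41 for the members and 0.18 for all tested genes in Mgl2-DTR liver, and 0.25 and 0.18 in wild-type liver. In epididymal fat it was 0.23 and 0.19 in Mgl2-DTR, and 0.53 and 0.24 in wild-type arrays. In inguinal fat it was 0.34 and 0.16 in Mgl2-DTR, and 0.17 and 0.15 in wild-type arrays. Fos, Egr1, Atf3 and Ier2 were lower in replicate 2 than in replicate 1 in all 4 fat groups. The mean of the 9 members was also lower in replicate 2 in the 4 fat groups and higher in replicate 2 in both liver groups, and 2 to 6 of 9 members were higher in replicate 2 of a group. The 2 arrays of a group differed most for Fos (-1.97), Atf3 (-1.24), Junb (1.21) and Gadd45g (1.06), given as replicate 2 minus replicate 1 in wild-type epididymal fat for Fos and Atf3, in Mgl2-DTR liver for Junb and in wild-type liver for Gadd45g.

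Other immediate early genes were followed as a list of 50 names, some of them older names of the same gene, of which 46 were tested. None was called between the genotypes in any tissue. An unadjusted p under 0.05 was reached by 3 of 46 in epididymal fat (6.98% of all genes), 4 in inguinal fat (6.93%) and 3 in liver (5.53%). The median change of the 9 members was -0.18 in epididymal fat, 0.30 in inguinal fat and -0.01 in liver. That of the other early genes was 0.06, 0.19 and 0.0036 in the same order, and that of all tested genes was 0.0049, 0.10 and 0.01. In inguinal fat 8 of 9 members and 38 of 46 other early genes had estimates above 0, as had 8981 of all 12710 genes. The smallest p-values in inguinal fat were those of Csrnp1, a nuclear factor (0.77, SE 0.223; adjusted p = 0.552), and Btg1, an antiproliferative gene (0.51, SE 0.191; adjusted p = 0.678). Csrnp1 lay under the filter level in wild-type inguinal fat, at a mean of 5.57. In epididymal fat the smallest p-values were those of Fosb, an AP-1 subunit (0.89, SE 0.297; adjusted p = 0.710), and the orphan nuclear receptor Nr4a3 (0.51, SE 0.174; adjusted p = 0.710). In liver they were those of Nfkbiz, a nuclear regulator of NF-kB (0.55, SE 0.200; adjusted p = 0.774), and the zinc finger factor Klf6 (0.49, SE 0.182; adjusted p = 0.787).

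**Figure D4:**
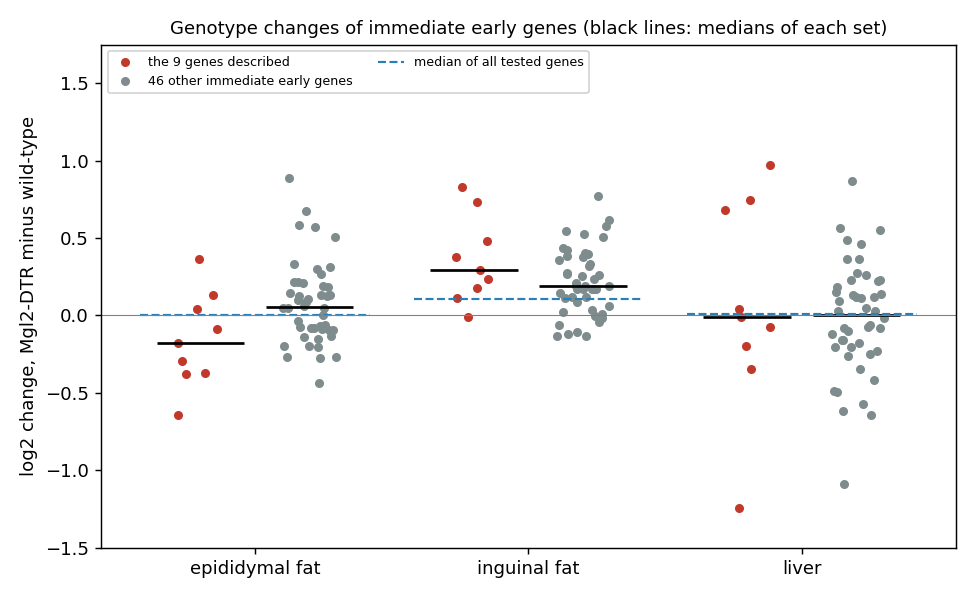
Genotype changes, Mgl2-DTR less wild-type in log2 units (vertical axis), of the 9 genes (red) and of 46 other immediate early genes (grey) in each tissue. Points are genes, black lines are the medians of each set, and dashed lines are the median of all tested genes. The members' medians lie at -0.18, 0.30 and -0.01 and those of the other immediate early genes at 0.06, 0.19 and 0.0036 in epididymal fat, inguinal fat and liver.

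Between tissues, 36 of these 46 genes were called, 26 lower and 10 higher in liver than in fat, where 68.4% of all genes were called, and the median difference was -1.07 for the members, -0.61 for these genes and -0.15 for all tested genes. The zinc finger factors Klf4 (-2.92, SE 0.130) and Klf6 (-2.76, SE 0.111) were lower in liver, and Errfi1, an inhibitor of the EGF receptor (2.79, SE 0.193), and the stress kinase Plk3 (2.72, SE 0.182) were higher. Klf4 lay under the filter level in liver, at 5.10 in Mgl2-DTR and 5.45 in wild-type means, so the size of its difference is limited by that floor. Between the depots 2 of 46 were called lower in inguinal fat, against 3.32% of all genes, the phosphatase Dusp5 (-1.08, SE 0.214) and the matrix protein gene Ccn2 (-0.77, SE 0.171). The orphan nuclear receptor Nr4a2 (0.66, SE 0.128) was the 1 called higher, as were 522 of all 12710 genes.

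Genes linked to the members by pathway were also listed. Of 17 tested kinases and factors that act on immediate early genes, 0 were called between genotypes in any tissue, and 12 were called between liver and fat, 4 higher and 8 lower, a share near the 68.4% of all genes. The kinase gene Rps6ka3, whose product phosphorylates the factor CREB, was lower in liver (-3.13, SE 0.117), and the receptor gene Egfr was higher (1.14, SE 0.233). Of 13 tested p53 targets and Gadd45 partners, 0 were called between genotypes, the smallest p-values being those of Sesn1 in epididymal fat (-0.56, SE 0.142; adjusted p = 0.643), Sesn2 in inguinal fat (0.85, SE 0.248; adjusted p = 0.555) and Gtse1 in liver (-0.55, SE 0.298; adjusted p = 0.994), which lay under the filter level in both liver groups. Sesn1 and Sesn2 encode stress-induced inhibitors of mTORC1 signalling. Of 10 genes of the integrated stress response, 0 were called, with Ddit3, the factor CHOP, at 0.77 (SE 0.179; adjusted p = 0.381) and the asparagine synthetase gene Asns at -0.68 (SE 0.223; adjusted p = 0.733) in liver. Of 8 heat shock genes and 8 genes raised by fasting, 0 were called between genotypes. In liver Hspa1a changed by 0.82 (SE 0.304; adjusted p = 0.777) and Igfbp1 by 1.32 (SE 0.565; adjusted p = 0.885). The 2 wild-type livers lay far apart for Igfbp1, with an SD of 1.55 against 0.48 in Mgl2-DTR livers. In inguinal fat Irs2, an adaptor of the insulin receptor, changed by 1.23 (SE 0.271; adjusted p = 0.236).

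Genes outside the list whose levels followed the mean of the 9 members most closely over the 12 arrays were 1700047G03Rik (Pearson's r = 0.986), Plxna4 (0.974), Chek2 (0.968), Bub3 (0.965) and Zfand2a (0.964). These values mostly follow the order of the 3 tissues, which the 12 arrays share. With each tissue mean taken away the closest were Spice1 (0.911), Nmt1 (0.90), Gdpd5 (0.893), Psme3ip1 (0.887) and Kat7 (0.883), picked as the highest of all tested genes over 12 arrays, and they are a description only.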

How the data were processed

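RNA levels were measured on an Affymetrix mouse gene array after labelling with the GeneChip WT PLUS kit, per the labels' protocols. The deposited values are normalized log2 levels of 41345 probes, with column medians of 5.19 to 5.28. The submitters' processing notes name limma, while the sources used here do not give the background correction, the normalization or the summarization. Of the probes, 23521 carry 1 gene symbol in the platform annotation, 1814 several and 16010 none listed. For each of 22180 genes the single-symbol probe with the highest mean was used. A gene was tested if its mean in at least 1 tissue exceeded 5.71, the median of single-symbol probes. The main test was limma 3.58.1 (R 4.3.3), with 1 mean per group over the 12 arrays, with 6 residual and 3.35 prior degrees of freedom, and p-values are two-sided. An exact test of 2 against 2 arrays cannot go below p = 0.333, so none was used. The small number of arrays limits precision.

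Genes other than the members were named by rule: Mgl2, up to 4 called members of each list or the 2 with the smallest p where none was called, and the 5 closest by correlation. Gene and marker lists, members and alternatives were chosen with earlier results of these data known. Alternatives covered the filter, probe, normalization, moderation, array weights, replicate number, arrays used and threshold. Replicate numbers were checked for pairing by the deviations of same-numbered arrays, which correlated across genes at -0.12 to 0.12 over all pairs of groups. Pairs of tissues within a genotype, the only ones that could share a mouse, gave -0.01 to 0.12. Not every pair exceeded 0.1, so the numbers were not treated as pairs, and whether tissues share animals stays unknown.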

Additional observations from a re-analysis of the deposited data

Results flagged for a closer look

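Some changes ran in opposite directions in 2 tissues, with no overlap of the genotypes in either. For Gadd45b the inguinal change minus the epididymal change was 1.47 (SE 0.211; adjusted p = 0.341). Its liver change minus the epididymal change was 1.62 (SE 0.211; unadjusted p = 2.52e-05; adjusted p = 0.0614), a contrast chosen after the values were seen, with adjusted p from 0.00701 to 0.314 over its alternatives. For Gadd45g the inguinal change minus the epididymal change was 1.11 (SE 0.494; adjusted p = 0.995). For Ier2 the liver change minus the inguinal change was -0.53 (SE 0.24; adjusted p = 0.723), also chosen after its values were seen. None of the 4 differences passed the threshold by limma.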

How the results depend on the processing

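Counts of called members moved as follows. Between genotypes the count in inguinal fat was 1 with array weights (Gadd45b, adjusted p = 0.0288) and in liver 2 at an adjusted p under 0.10 (Dusp1 and Gadd45b), against 0 in each. Leaving out each array in turn gave 0 to 1 member in epididymal fat, 0 in inguinal fat, liver and the average, 0 to 1 for the inguinal minus the epididymal change and for the liver minus the fat change, 6 to 8 for liver minus fat, and 1 to 4 for inguinal minus epididymal fat. The last count was 1 with the arrays of both depots alone, 1 without both muscle-bearing inguinal arrays and 4 at an adjusted p under 0.10, against 2. The looser threshold left the estimates unchanged, and the cause of the other moves, fewer arrays included, was not tested. With the replicate block the counts were 0 in each tissue, 7 for liver minus fat and 2 for inguinal minus epididymal fat, and it changed no call of a member, while over all genes it called 5 in liver, against 9. Deviations of the inguinal arrays correlated at -0.12 between the genotypes, and the crossed block, added after seeing the data, gave 0 calls of members in inguinal fat and 3 between the depots, Dusp1 being added (adjusted p = 0.0467), as it also was with the 75th percentile filter (0.0432) and the trended, robust moderation (0.0433). Of 1888 values of single members under an alternative, 1822 kept their call or stayed uncalled within 1 SD of the main value. Of the rest, 21 became called, 9 lost their call and 36 stayed uncalled but moved by over 1 SD. No called value changed sign. Over all genes the count of calls ranged from 0 to 763 in epididymal fat (763 without wild-type replicate 2), 0 to 55 in inguinal fat, 1 to 16 in liver and 5 to 297 for the average, against 4, 25, 9 and 9, from 0 to 123 for the inguinal less the epididymal change and 0 to 244 for the liver less the fat change, against 0 and 30, and from 5504 to 11044 for liver less fat and 244 to 2265 between the depots, against 8689 and 944. A run without the macrophage-rich wild-type epididymal replicate 1 and the duct-bearing Mgl2-DTR epididymal replicate 2 was also added after seeing the data. Its epididymal changes were 0.84 for Fos, 0.75 for Egr1, 0.51 for Atf3 and 0.33 for Ier2, each moved by over 1 SD. Where an array was left out, the lone array of its group was assumed to vary like the others. With 2 arrays a group and a spread shared across tissues, changes near 1 on the log2 scale could miss the threshold. Fos in liver and Gadd45b in wild-type liver lay near the level of dim probes.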

Other observations

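The probe that carries both Gadd45a, the member of the family induced by p53, and E230016M11Rik was not used above, since its signal cannot be assigned to 1 gene. It stood at 7.94 and 7.99 in Mgl2-DTR against 7.99 and 7.65 in wild-type epididymal fat, at 8.16 and 8.13 in Mgl2-DTR against 7.87 and 7.33 in wild-type inguinal fat, and at 7.01 and 7.52 in Mgl2-DTR against 7.23 and 6.99 in wild-type liver. The genotypes were apart in inguinal fat, at 0.54 (SE 0.223; adjusted p = 0.695), and overlapped elsewhere. The probe was lower in liver than in the mean of both depots by 0.69 (SE 0.137; adjusted p = 0.00141), and inguinal minus epididymal fat was -0.02 (SE 0.158; adjusted p = 0.955).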
